A study of Rattus norvegicus with 12 samples.

Results

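Ethanol is cleared by a short chain of enzymes, and 10 genes of that chain were examined in the central nucleus of the amygdala (CeA) of rats, out of 37209 genes listed in the count table. The genes were taken by name for their place in the pathway, with earlier results of these data known. They are *Adh1*, *Adh5*, *Cat* and *Cyp2e1* for the oxidation of ethanol, *Aldh2*, *Aldh1a1*, *Aldh1b1* and *Aldh3a2* for the oxidation of acetaldehyde and related aldehydes, and *Acss1* and *Acss2* for the activation of acetate. All 10 had enough reads to be tested. None differed between CIE and Control by edgeR's quasi-likelihood test, even before correction for multiple tests.

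The 12 animals were male wild type Sprague Dawley rats of 14 to 16 weeks. Of these, 6 (CIE rats 1 to 6) had gone through repeated cycles of ethanol vapor and air, known as chronic intermittent ethanol, and 6 (Control rats 7 to 12) had breathed air only. Tissue was taken directly after the final exposure and not in withdrawal, so the CIE values describe a brain that contained ethanol. CeA was punched from frozen sections, and each rat gave 1 poly-A RNA-Seq library of 39082548 to 95647601 counted reads.

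In the liver, alcohol dehydrogenase in the cytosol oxidizes most ethanol to acetaldehyde, and mitochondrial aldehyde dehydrogenase turns acetaldehyde into acetate. In the brain, classical alcohol dehydrogenase is scarce, and catalase of the peroxisome and the cytochrome P450 CYP2E1 are regarded as the main local routes from ethanol to acetaldehyde. Acetate that reaches the brain from the blood or is made there becomes acetyl-CoA through acetyl-CoA synthetases, ACSS1 in mitochondria and ACSS2 in the cytosol and nucleus, where acetyl-CoA serves energy supply, lipid synthesis and histone acetylation.

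Markers written down for each cell type showed what the punches held. All 7 of the CeA neuron markers found in the table were detected in every rat, with a summed level of 395 to 1577 CPM (read counts scaled to a common library total) in CIE rats and 411 to 1760 CPM in Control rats. Markers of striatal projection neurons summed to 2257 CPM in CIE rat 2, 1077 CPM in CIE rat 4 and 2449 CPM in Control rat 10, against 207 to 576 CPM in the other rats. CeA neuron markers also had their highest sums in CIE rat 2 (1577 CPM), CIE rat 4 (874 CPM) and Control rat 10 (1760 CPM). All 6 striatal markers and all 6 markers of cortical glutamatergic neurons were detected in every rat. Of the 10 oligodendrocyte markers, 9 were lower in CIE at the nominal threshold (an unadjusted level of 0.05 in edgeR), and their sum lay between 5593 and 13657 CPM in CIE rats and between 8633 and 16170 CPM in Control rats. Meningeal fibroblast markers were lower in 5 of 7 genes, with sums of 44.6 to 92.0 CPM in CIE rats and 101 to 163 CPM in Control rats that did not overlap, and mural cell markers in 5 of 6, at 85.0 to 129 CPM and 116 to 138 CPM. All 6 cortical markers had a log2 fold change above 0, with a median of 1.37, and 1 of them passed the nominal threshold. Their sums overlapped, at 46.9 to 449 CPM in CIE rats and 48.1 to 187 CPM in Control rats. Only CIE rats 1, 2 and 4 lay above every Control rat. The part of these markers in the enzyme values was tested only for the scores named with each result. In tissue RNA, fewer cells of a type and less RNA per cell cannot be told apart.

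Across all genes, 1740 of 20944 tested passed the nominal threshold between CIE and Control, or 8.31%, with 837 higher in CIE and 903 lower. At a false discovery rate (FDR) of 5%, 76 genes passed (0.363%), and in 187 genes (0.893%) the groups did not overlap. Against these shares, 0 of the 10 enzymes passed the nominal threshold, 0 passed 5% FDR and in 0 of them were the groups apart. DESeq2, DESeq2 with a prior on fold changes and limma-voom with sample weights also called 0 of the 10 at either threshold. With so few members, these counts lie close to what the shares over all genes would give. The fitted log2 fold changes were above 0 in 4 enzymes and below 0 in 6, with a median of -0.02 beside 0.00096 over all genes tested. The smallest FDR among the 10 was 0.656, for *Acss2*.

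**Figure D1:**
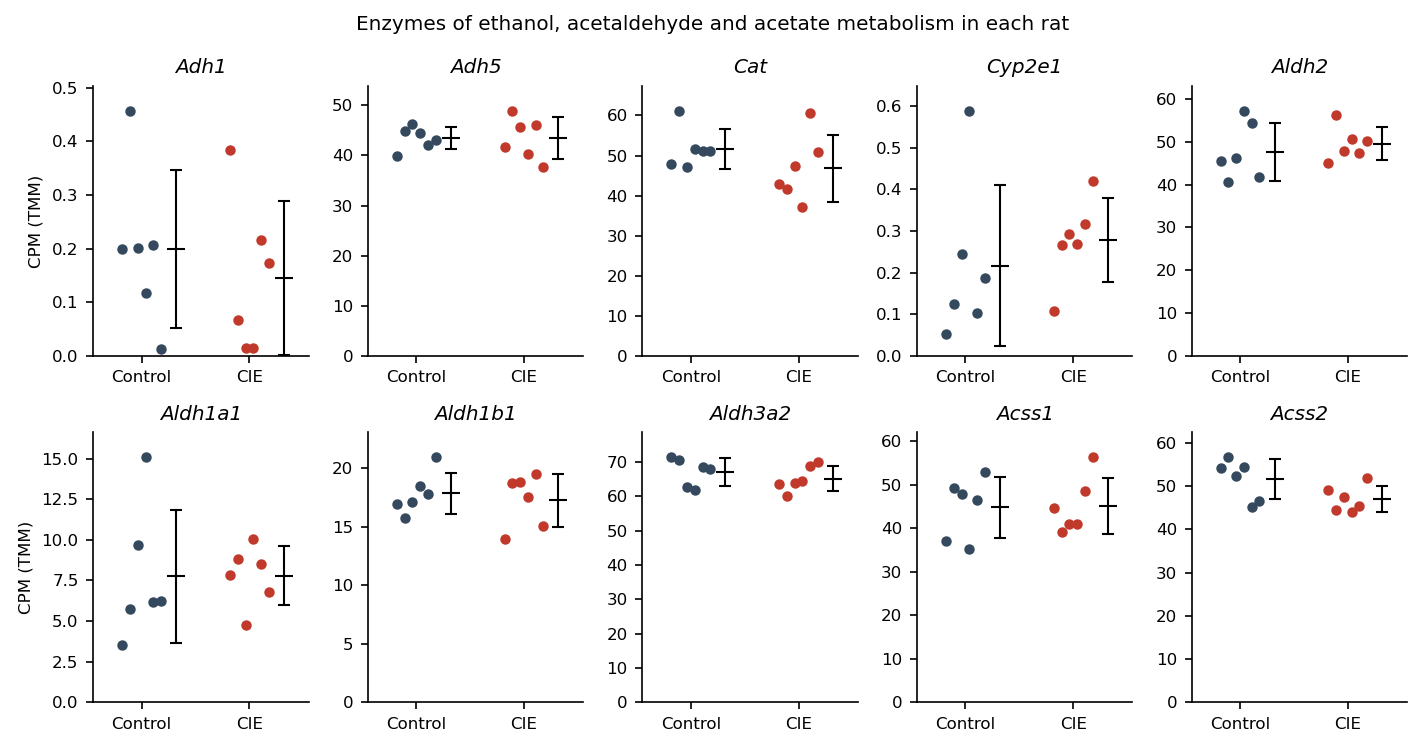
Level of each of the 10 enzymes (CPM after TMM scaling, vertical axis from 0) in 6 Control and 6 CIE rats. Each point is 1 rat, and the bar beside each group is the mean ± SD. The groups overlap in all 10 panels, and the panels with the widest spread for their level are *Adh1*, *Cyp2e1* and *Aldh1a1*.

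The enzymes that open the pathway were measured at very different depths. *Adh5* encodes class III alcohol dehydrogenase, which acts mainly on the glutathione adduct of formaldehyde and only weakly on ethanol. Its level ran from 37.8 through a median of 43.7 to 49.0 CPM in CIE rats and from 39.9 through 43.8 to 46.2 CPM in Control rats. The groups lay on top of each other, with means of 43.4 ± 4.17 and 43.4 ± 2.25 CPM (SD, n = 6 each). The 95% interval of the log2 fold change was -0.15 to 0.15, which is 0.903 to 1.11 as a fold.

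*Adh1*, the classical liver enzyme, was close to the limit of detection. Between 1 and 44 reads per rat were assigned to it, 60 in all over the CIE rats and 89 over the Control rats. Its level was 0.0149 to 0.384 CPM in CIE rats, with a median of 0.12 CPM, and 0.0134 to 0.458 CPM in Control rats, with a median of 0.20 CPM. The rats with the lowest values, at 1 read each, were CIE rats 3 and 4 and Control rat 12, so both groups reached the floor. The log2 fold change of -0.47 ± 0.72 (SE) had an interval of -2.02 to 1.08, so differences in either direction lay within it. The SD of its level was 99.0% of the mean in CIE and 73.7% in Control. RefSeq names this gene *Adh1c* and places it in a cluster with *Adh6a*, *Adh6*, *Adh4*, *Adh5* and the transcribed pseudogene *Adh1-ps1*, so the few reads may be shared with close relatives.

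*Cat* encodes catalase, which uses hydrogen peroxide to oxidize ethanol in the peroxisome. CIE rats spanned 37.3 to 60.7 CPM with a median of 45.2, and Control rats spanned 47.1 to 61.2 CPM with a median of 51.1. The 3 lowest rats were CIE rats 1, 2 and 4, below every Control rat, while CIE rat 5 lay within 1 CPM of the highest Control rat. The means were 46.8 ± 8.29 and 51.7 ± 5.05 CPM (SD, n = 6 each), and neither edgeR (log2 fold change -0.14 ± 0.11 SE, FDR = 0.788) nor the two-sided exact permutation test of the means (*p* = 0.232) separated the groups. Leaving out CIE rat 5 gave a log2 fold change of -0.23, which passed the nominal threshold with FDR = 0.492 in edgeR. It was -0.08 without Control rat 8 and -0.09 without CIE rat 4, and the nominal threshold was then not passed. Marker scores (mean log2 CPM of a list) were also used as covariates. The log2 fold change was then -0.02 for oligodendrocytes, -0.18 for endothelial cells and -0.08 for cortical and striatal neurons. Most oligodendrocyte markers were lower in CIE, so a change with CIE and a change in oligodendrocyte RNA cannot be told apart.

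Red blood cells are rich in catalase, and the erythroid markers differed between the groups. The 3 erythroid markers used here (*Hbb*, *Alas2* and *Slc4a1*) were lower in CIE at the nominal threshold, without overlap, and summed to 29.6 to 94.4 CPM in CIE rats and 127 to 220 CPM in Control rats. All 3 had reads in every rat. Their part in the *Cat* values was not tested.

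*Cyp2e1*, the ethanol-inducible P450 of liver, had only 4 to 35 reads per rat. Its level was 0.108 to 0.419 CPM in CIE rats, with a median of 0.281 CPM, and 0.0532 to 0.59 CPM in Control rats, with a median of 0.156 CPM. The highest value of all belonged to Control rat 10, and 5 of the 6 CIE rats lay above the other 5 Control rats. Summed over rats there were 116 reads in CIE and 86 in Control. The log2 fold change was 0.37 ± 0.50 (SE), with an interval of -0.70 to 1.44 and an FDR of 0.898 in edgeR. Without Control rat 10 it was 0.96 and passed the nominal threshold (FDR = 0.431 in edgeR). Other single rats moved it down, to 0.16 without Control rat 7, 0.22 without CIE rat 6 and 0.25 without Control rat 11.

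Among the enzymes that remove acetaldehyde, *Aldh2* encodes the mitochondrial form with the highest affinity for it. CIE rats ran from 45.1 to 56.2 CPM with a median of 49.1, and Control rats from 40.7 to 57.3 CPM with a median of 45.9. The highest rats of their groups were CIE rat 2 and Control rat 10, which also had the most striatal marker RNA. The means were 49.6 ± 3.85 and 47.6 ± 6.75 CPM (SD, n = 6 each), with a log2 fold change of 0.06 ± 0.09 (SE) and an interval of -0.13 to 0.25. RefSeq also lists the name *Aldh2* as an older synonym of *Aldh1a1*. The table holds both names as separate genes.

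*Aldh1a1*, a cytosolic enzyme that oxidizes retinal and also acetaldehyde, and that marks a subset of dopamine neurons, was the most variable of the enzymes with more than 200 reads in every rat. CIE rats had 4.76 to 10.03 CPM with a median of 8.17, and Control rats had 3.54 to 15.1 CPM with a median of 6.23. The top value was again Control rat 10. The coefficient of variation was 23.5% in CIE and 52.9% in Control, and the interval of the log2 fold change, -0.61 to 0.63, was accordingly wide around a value of 0.01. Its near-identical relative *Aldh1a7*, at 9 to 63 reads per rat, had a log2 fold change of 0.41 ± 0.35 (SE), and reads may have been split between the 2 genes.

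The remaining members of this step varied little. *Aldh1b1*, a second mitochondrial enzyme that accepts acetaldehyde, had 13.9 to 19.5 CPM in CIE rats and 15.7 to 20.9 CPM in Control rats. The 2 lowest rats were CIE rats 1 and 6, and the log2 fold change was -0.05 ± 0.10 (SE), with an interval of -0.26 to 0.16. *Aldh3a2*, the fatty aldehyde dehydrogenase of the endoplasmic reticulum, had 60.2 to 70.002 CPM in CIE rats and 61.7 to 71.5 CPM in Control rats. It had the narrowest interval of the 10, -0.17 to 0.08 around -0.04.

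Of the acetate-activating enzymes, *Acss2* came nearest to a difference. CIE rats had 44.0 to 51.9 CPM with a median of 46.4, and Control rats had 45.3 to 56.7 CPM with a median of 53.3. All 6 CIE rats lay below the Control median, and 4 Control rats lay above every CIE rat, while Control rats 11 and 12 sat among the CIE rats. The means were 47.1 ± 3.08 and 51.6 ± 4.65 CPM (SD, n = 6 each). The log2 fold change was -0.13 ± 0.07 (SE), with an interval of -0.28 to 0.02 and FDR = 0.656 in edgeR, and the two-sided exact permutation test gave *p* = 0.0801. Leaving out CIE rat 6, Control rat 11 or Control rat 12 brought it past the nominal threshold, with an FDR of 0.493, 0.681 and 0.582 in edgeR.

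*Acss1*, the mitochondrial synthetase, did not share that pattern. CIE rats had 39.2 to 56.4 CPM with a median of 42.8, and Control rats had 35.2 to 52.8 CPM with a median of 47.2. Its log2 fold change was 0.01 ± 0.11 (SE), with an interval of -0.23 to 0.25. The ratio of *Acss2* to *Acss1* reads was 0.921 to 1.16 in CIE rats, with a mean of 1.05 ± 0.10, and 0.880 to 1.54 in Control rats, with a mean of 1.19 ± 0.27 (SD, n = 6 each). The groups overlapped in this ratio, which is given without a test.

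**Figure D2:**
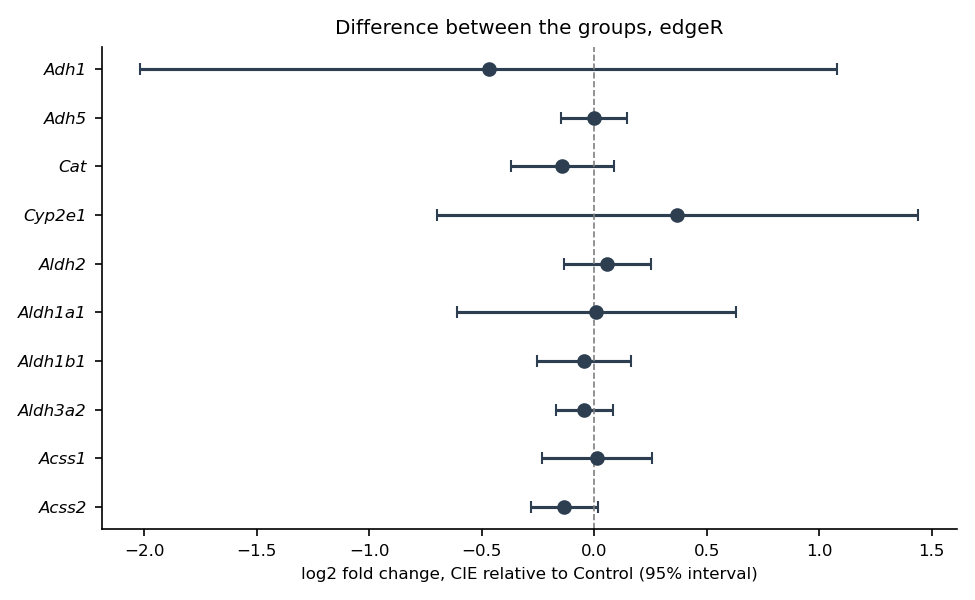
Log2 fold change of each enzyme in CIE relative to Control (horizontal axis), as a point with its 95% interval from edgeR's quasi-likelihood fit over 12 rats. Every interval includes 0. Those of *Adh1*, *Cyp2e1* and *Aldh1a1* are wide, and the other 7 lie between -0.37 and 0.25.

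The 7 enzymes with a Control mean of at least 10 CPM (*Adh5*, *Cat*, *Aldh2*, *Aldh1b1*, *Aldh3a2*, *Acss1* and *Acss2*) rested on 689 to 6784 reads per rat. Their standard errors were 0.06 to 0.11 on the log2 scale. All 7 intervals lay within 0.773- to 1.19-fold, so changes larger than that lay outside each gene's 95% interval. For *Adh1* and *Cyp2e1* the reads were few and the spread between rats was wide, and a doubling lay within the interval of both. RNA level says nothing of enzyme activity, which was not measured.

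Part of the spread between rats went with the marker RNA that each punch held. A striatal marker score (mean log2 CPM of the 6 markers) and an oligodendrocyte marker score (the same over its 10 markers) were set against each enzyme over the 12 rats, giving 20 relations that were chosen after the values had been seen. *P* values came from 100000 permutations with Benjamini-Hochberg (BH) adjustment over the 20. CIE rat 2 and Control rat 10 had the highest striatal scores, 8.40 and 8.53, against 4.84 to 7.33 in the others, and all relations with this score were computed again without them. Both rats also had the highest CeA neuron marker sums, so the score does not separate striatal from CeA neuron RNA. The part of CeA neuron RNA in the relations was not tested.

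*Aldh2* was higher in rats with more striatal marker RNA, with Pearson's r = 0.80 (permutation *p* = 0.00186, BH 0.0186) and Spearman's rho = 0.69 (permutation *p* = 0.0158, BH 0.0788). *Aldh1a1* went the same way, with r = 0.71 (permutation *p* = 0.00908, BH 0.0416) and rho = 0.81 (permutation *p* = 0.00214, BH 0.0214). Without the 2 highest rats, r was 0.57 for *Aldh2* and 0.54 for *Aldh1a1*. Within the groups, r for *Aldh2* was 0.82 in CIE (exact permutation *p* = 0.05) and 0.80 in Control (exact permutation *p* = 0.0319). For *Aldh1a1* it was 0.54 in CIE (exact permutation *p* = 0.289) and 0.80 in Control (exact permutation *p* = 0.0694).

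*Aldh3a2* and *Acss1* ran in the opposite direction. *Aldh3a2* had r = -0.80 (permutation *p* = 0.00064, BH 0.0128) and rho = -0.85 (permutation *p* = 0.00089, BH 0.0178), and *Acss1* had r = -0.69 (permutation *p* = 0.0137, BH 0.0455) and rho = -0.59 (permutation *p* = 0.0487, BH 0.171). Without the 2 highest rats, r was -0.65 for *Aldh3a2* and -0.44 for *Acss1*. Within CIE and Control, r was -0.77 (exact permutation *p* = 0.0903) and -0.81 (exact permutation *p* = 0.0264) for *Aldh3a2*, and -0.69 (exact permutation *p* = 0.11) and -0.73 (exact permutation *p* = 0.0806) for *Acss1*. The sign was the same in both groups and without the 2 rats for all 4 enzymes, and r was nearer to 0 without them in all 4. *Cat* had r = -0.53 (permutation *p* = 0.0734, BH 0.192) and rho = -0.54 (permutation *p* = 0.0735, BH 0.171) over the 12 rats, and r was -0.82 without the same 2 rats.

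**Figure D3:**
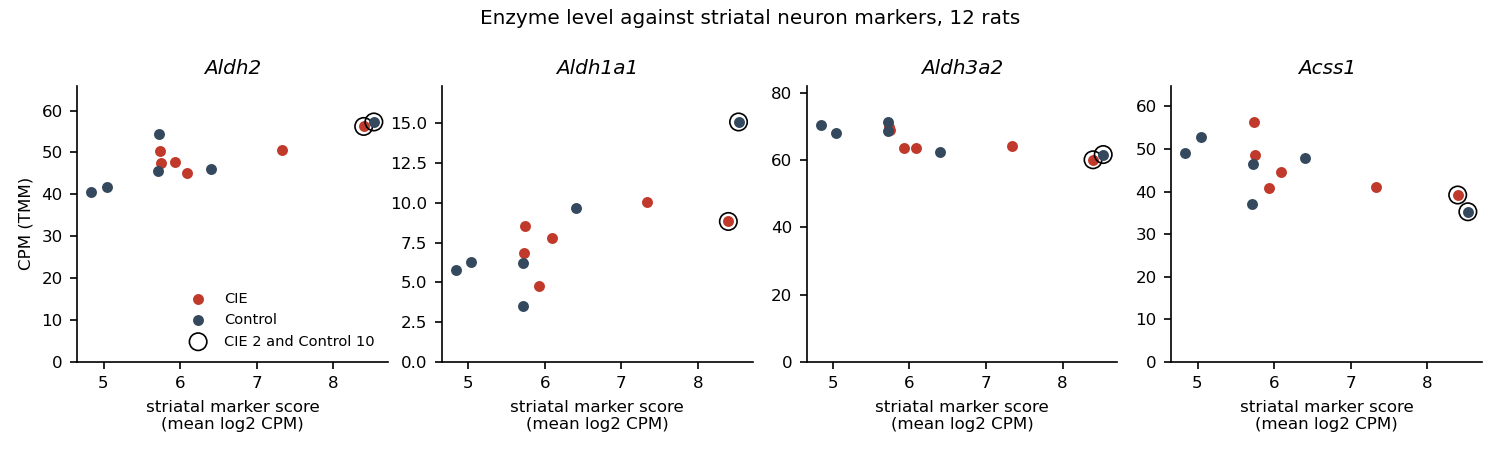
Level of *Aldh2*, *Aldh1a1*, *Aldh3a2* and *Acss1* (CPM, vertical axis from 0) against the striatal marker score (mean log2 CPM of 6 genes, horizontal axis) in 12 rats, with CIE and Control in different colors. Circles mark CIE rat 2 and Control rat 10, which have the highest scores. *Aldh2* and *Aldh1a1* are higher and *Aldh3a2* and *Acss1* lower at high scores in both groups.

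*Acss2* followed the other score. It was lower in rats with less oligodendrocyte marker RNA, with r = 0.74 (permutation *p* = 0.00711, BH 0.0416) and rho = 0.77 (permutation *p* = 0.00498, BH 0.0332), and r was 0.79 without CIE rats 3 and 4. Within the groups r was 0.63 in CIE (exact permutation *p* = 0.169) and 0.68 in Control (exact permutation *p* = 0.126). With the oligodendrocyte score as a covariate, the fitted log2 fold change of *Acss2* was -0.02 in place of -0.13. The score itself differed between the groups, so how much of the *Acss2* difference goes with CIE and how much with oligodendrocyte RNA cannot be told apart here. *Adh1*, with its few reads, also had r = 0.72 with this score (permutation *p* = 0.0104, BH 0.0416), but rho was 0.52 (permutation *p* = 0.0855, BH 0.171) and r was 0.45 without CIE rats 3 and 4. Within the groups r for *Adh1* was 0.73 in CIE (exact permutation *p* = 0.0972) and 0.88 in Control (exact permutation *p* = 0.0375). Of the 20 relations, the 13 not described here had a BH value above 0.05 for both measures.

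For *Acss2*, *Cat* and *Aldh3a2*, the 3 enzymes that ranked first in the test, the genes whose levels followed them most closely were sought among 16890 genes with a mean of at least 1 CPM, as deviations from the group means over 12 rats. *Acss2* was closest to *Megf6* and *Dcst1* (r = 0.90 for both), *Cat* to *Manea* (r = 0.94) and *Paox* (r = 0.90), and *Aldh3a2* to *Orc1* (r = 0.96) and *Vash2* (r = 0.93). Spearman's rho was 0.71 for *Cat* with *Manea* and 0.85 to 0.99 for the other pairs. Without the 2 rats farthest from each enzyme's median deviation, r was 0.83 for *Cat* with *Manea* and 0.81 to 0.95 for the other pairs. These are the top of a large search and are given as a description with no test. Of the 6 genes, *Dcst1* alone passed the nominal threshold between the groups (log2 fold change 0.54, FDR = 0.554 in edgeR).

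The steps around the 10 enzymes were read from lists of 87 further genes, of which 83 had enough reads to be tested. Of the 83, 11 passed the nominal threshold, with 4 higher and 7 lower in CIE, and 1 passed 5% FDR, beside 8.31% and 0.363% of all genes. The number lower was 13 without CIE rat 3. The median log2 fold change over the 83 was -0.03. Most of the 11 belonged to acetate and acetyl-CoA handling, where 7 of 16 genes passed, 2 higher and 5 lower, beside the same 8.31% of all genes. The lists were chosen with earlier results of these data known, so these shares are a description and not a test. Lists of 9 aldehyde-reducing enzymes and 18 peroxisomal genes each held 0 genes past the nominal threshold, and at the 8.31% of all genes few or none would be called in lists of this size.

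**Figure D4:**
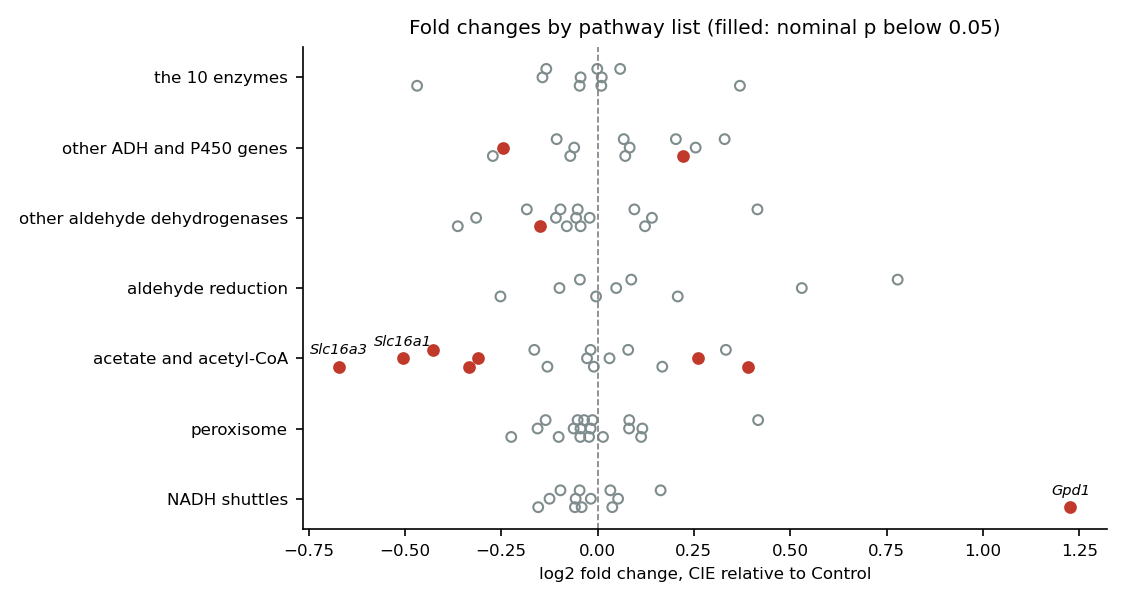
Log2 fold change in CIE relative to Control (horizontal axis) for every tested gene of the 10 enzymes and of 6 pathway lists, 1 row per list. Filled points passed the nominal threshold in edgeR, as 0 of the 10 enzymes, 7 of 16 acetate and acetyl-CoA genes and 1 of 13 NADH shuttle genes do. Names mark *Gpd1*, *Slc16a1* and *Slc16a3*. The lists were chosen with earlier results of these data known.

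Both ethanol and acetaldehyde oxidation by dehydrogenases turn NAD+ into NADH, which the cytosol passes on through shuttles. *Gpd1*, the cytosolic enzyme of the glycerol phosphate shuttle, was the only one of 13 shuttle genes to pass the nominal threshold, and it also passed 5% FDR. It ran from 87.3 through a median of 137 to 213 CPM in CIE rats and from 33.6 through 57.4 to 78.7 CPM in Control rats. All CIE rats lay above all Control rats. Its log2 fold change was 1.23 ± 0.24 (SE) with FDR = 0.0469 in edgeR, and the group means were 136 ± 44.4 and 58.0 ± 19.0 CPM (SD, n = 6 each). *Gpd1* is also strongly expressed in oligodendrocytes, whose markers were lower in CIE, and with the oligodendrocyte score as a covariate the log2 fold change was 1.80 (FDR = 0.00319). The two-sided exact permutation test of the means gave *p* = 0.00216. Of the 11 alternatives that did not leave out a single rat, 8 kept the 5% FDR call. Among them were DESeq2 (3.59e-05), DESeq2 with a prior on fold changes (3.79e-05, with a smaller size of 0.71) and limma-voom (0.022). The call was lost with the endothelial score (1.65, FDR = 0.0714) and with the cortical and striatal scores (1.12, FDR = 0.121). It was also lost without CIE rat 2 and Control rat 10 (1.34, FDR = 0.067). In edgeR the FDR of *Gpd1* lay just under the threshold. It ran from 0.0272 to 0.135 when 1 rat was left out, under 0.05 in 3 of 12 fits, while the log2 fold change stayed between 1.06 and 1.34.

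Acetate, lactate and ketone bodies enter cells through monocarboxylate transporters. *Slc16a1* (MCT1), found on endothelium and oligodendrocytes, had 31.2 to 46.5 CPM in CIE rats, with a median of 33.8, and 39.3 to 55.6 CPM in Control rats, with a median of 51.7. Of the CIE rats, 5 lay below every Control rat, and the exception was CIE rat 6. Its log2 fold change was -0.51 ± 0.10 (SE) with FDR = 0.0621 in edgeR, and the two-sided exact permutation test of the means gave *p* = 0.00433. It passed 5% FDR in DESeq2 (0.00318), in DESeq2 with a prior (0.00305) and in limma-voom (0.0155), and in edgeR without CIE rat 6 (0.0082) or Control rat 12 (0.0236). The log2 fold change was -0.24 with the endothelial marker score and -0.26 with the oligodendrocyte marker score as a covariate, past the nominal threshold in both. Of 9 endothelial markers tested, 5 were lower and 2 higher at the nominal threshold, and their sums overlapped, at 317 to 405 CPM in CIE rats and 328 to 395 CPM in Control rats. *Slc16a3* (MCT4), at 41 to 173 reads per rat, was lower at the nominal threshold (log2 fold change -0.67 ± 0.29 SE, FDR = 0.554 in edgeR), a call that was lost in 9 of 23 alternatives, 7 of them leaving out 1 rat (CIE rats 1, 2, 5 and 6 and Control rats 8, 11 and 12). It ranked seventh in a list whose named genes were limited to 6 and was added after its values were seen. *Slc16a7* (MCT2), the neuronal form, had a log2 fold change of 0.17 ± 0.14 (SE) with FDR = 0.818 in edgeR.

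Of the genes that supply or use acetyl-CoA, *Slc25a1*, which exports citrate from mitochondria for cytosolic acetyl-CoA, had 28.6 to 35.5 CPM in CIE rats and 30.5 to 46.7 CPM in Control rats. Only Control rat 12 lay among the CIE rats, and the log2 fold change was -0.33 ± 0.09 (SE) with FDR = 0.219 in edgeR (0.0332 without Control rat 12). It was -0.14 with the oligodendrocyte score and -0.15 with the endothelial score, past the nominal threshold in neither. *Acat2*, which condenses acetyl-CoA in the cytosol, had a log2 fold change of -0.31 ± 0.10 (SE) with FDR = 0.359 in edgeR, and with those scores it was -0.25 and -0.29, again past the nominal threshold in neither. *Aspa*, the oligodendrocyte enzyme that frees acetate from N-acetylaspartate, had 15.04 to 28.5 CPM in CIE rats and 20.9 to 33.0 CPM in Control rats, with a log2 fold change of -0.43 ± 0.14 (SE) and FDR = 0.364 in edgeR. With the oligodendrocyte score as a covariate it was -0.02, no longer past the nominal threshold. Most markers of the oligodendrocyte and endothelial scores were lower in CIE. For *Slc16a1*, *Slc25a1*, *Acat2* and *Aspa*, a change with CIE and a change in those cells' RNA cannot be told apart. CIE rat 6, the highest CIE rat for both *Slc16a1* and *Aspa*, also had the highest oligodendrocyte marker sum of its group, and Control rat 12, the lowest Control rat for *Slc16a1*, *Slc25a1* and *Aspa*, had the lowest of its group. No correlation of these genes with the oligodendrocyte markers over the rats was tested.

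The 2 higher genes of this list were *Acat1*, the mitochondrial thiolase of ketone body metabolism (log2 fold change 0.26 ± 0.09 SE, FDR = 0.403 in edgeR), and *Acacb*, the mitochondrial acetyl-CoA carboxylase (0.39 ± 0.15 SE, FDR = 0.476). *Acacb* no longer passed the nominal threshold without CIE rat 6 (0.31) or with the endothelial score (0.41). *Acss3*, the third acetyl-CoA synthetase, which prefers propionate, had a log2 fold change of 0.08 ± 0.14 (SE).

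**Figure D5:**
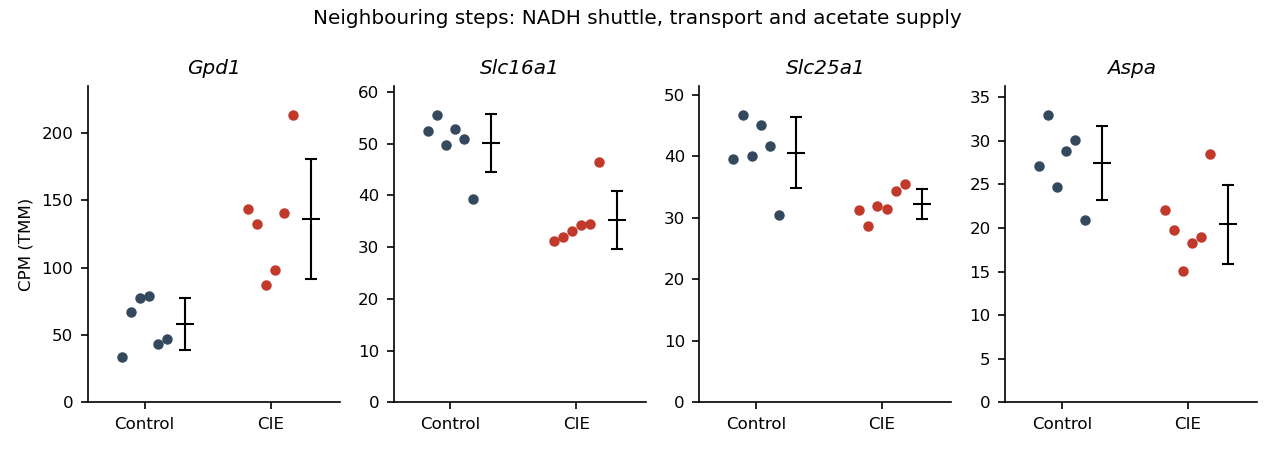
Level of *Gpd1*, *Slc16a1*, *Slc25a1* and *Aspa* (CPM, vertical axis from 0) in 6 Control and 6 CIE rats, each point 1 rat, with the mean ± SD beside each group. The groups are apart for *Gpd1*, at 87.3 CPM or more in CIE and 78.7 CPM or less in Control, and they overlap for the other 3.

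*Aldh9a1*, which oxidizes aminoaldehydes, was the only one of 15 further aldehyde dehydrogenases to pass the nominal threshold (log2 fold change -0.15 ± 0.06 SE, FDR = 0.450 in edgeR). *Aldh1l1*, a folate enzyme used as an astrocyte marker, had a log2 fold change of -0.10 ± 0.08 (SE). Of 12 tested genes for other alcohol dehydrogenases, P450s and their electron carriers, the fatty acid-oxidizing P450s *Cyp2u1* (-0.24 ± 0.08 SE, FDR = 0.368) and *Cyp4x1* (0.22 ± 0.10 SE, FDR = 0.568) passed in opposite directions in edgeR. *Cyp4x1* lost the nominal threshold in 8 of 23 alternatives, 6 of them leaving out 1 rat (CIE rats 1, 5 and 6 and Control rats 9, 10 and 11), and *Aldh9a1* in 5 of 23, 1 of them leaving out Control rat 8. *Adh4* had 0 to 20 reads per rat and *Adh7* 0 to 6, and both were below the filter on low counts.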

How the data were processed

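CeA RNA of 6 CIE and 6 Control rats was sequenced by poly-A RNA-Seq, 1 library per rat. The authors aligned paired-end reads with BWA to the Rnor_6.0 genome and assigned them to genes by HTSeq. The deposited file holds the raw counts. Most library totals exceed the average number of reads per sample that the paper reports, and how mates of a pair were counted is not given. BWA does not splice reads, so reads across exon junctions may be lost, more in genes with short exons. The annotation and the strand and overlap settings are not given in the sources used here, so overlapping genes and close relatives are uncertain. The submitters' processing notes name DESeq2 1.26. Of 37209 genes, 7757 had 0 counts in every rat. Sample titles all end in CIE, those of the Control rats included, so groups were taken from the treatment label. The spread between any pair of rats within CIE or Control was 17.5 to 215 times that of Poisson counts, so no library was a copy of another in its group. Pairs of a CIE and a Control rat were not compared.

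Counts were tested in R 4.3.3 with edgeR 4.0.16 (quasi-likelihood F test, TMM, filterByExpr with min.count 10 and min.total.count 15, no covariates), with BH adjustment over all 20944 genes tested. SEs are the log2 fold change over the square root of F, and 95% intervals use the fit's degrees of freedom. CPM values are scaled by TMM. Single genes were also compared by a two-sided exact permutation test, whose smallest *p* for 6 against 6 is 0.00216. On simulated data the edgeR fit returned unbiased fold changes but missed part of the changed genes, and the pass mark for recovery was lowered after that was seen. Alternatives were run with DESeq2 1.42.0 and limma 3.58.1, other scalings and filters, marker scores as covariates and each rat left out. No gene lengths were used, so levels are not compared between genes. Counting depth limits *Adh1* and *Cyp2e1* most.

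The members, gene lists and tests were chosen with earlier results of these data known. Named were all members, each list's genes past the nominal threshold (unadjusted level of 0.05), up to 6 by rank, *Aldh1a7*, *Aldh1l1*, *Adh4*, *Adh7*, *Acss3*, *Slc16a1* and *Slc16a7* whatever their test gave, and for the 3 first-ranked members the 2 genes most like each. Markers not found under the listed names were *Slco1a4*, *Hba-a1*, *Hba-a2* and *Tac2*. Of the erythroid list, 1 further marker is not reported here. Of the members, 9 matched RefSeq by symbol and 1 by synonym. RefSeq coordinates are of another build and were used only to list the genes from *Adh1c* to *Adh5*.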

Additional observations from a re-analysis of the deposited data

Results flagged for a closer look

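In 20 sets of 6 rats (10 enzymes in 2 groups), 2 held a rat far from the others of its group by Dixon's test at 95%. Chance gives about 1 in 20. Control rat 8 had 61.2 CPM of *Cat*, against 47.1 to 51.7 CPM in the other Control rats. Control rat 10 had 0.59 CPM of *Cyp2e1*, against 0.0532 to 0.245 CPM in the other Control rats. Control rat 8 was also the most deeply sequenced library, and Control rat 10 had the highest striatal marker sum, and the part of either in these values was not tested.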

How the results depend on the processing

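In 23 alternatives (12 leaving out 1 rat, 10 others, and 1, leaving out CIE rat 2 and Control rat 10, chosen after seeing the data), the enzymes at the nominal threshold numbered 0 to 1 when 1 rat was left out and 0 otherwise, and 0 passed 5% FDR. *Cat*, *Cyp2e1*, *Aldh2*, *Aldh3a2* and *Acss2* kept their direction in every alternative that held them (*Adh1* and *Cyp2e1* fell below the filter of at least 10 counts in every rat). No paired analysis was made, as no pairing of rats between the groups is given. The rats were group housed, their cages are not labeled, and each rat was treated as independent. Directions turned only in values near 0 or of few reads. *Adh5* was 0.0068 with DESeq2's size factors, 0.015 with library size only, 0.00090 with at least 10 counts in every rat, 0.0064 in DESeq2, 0.0060 with its prior and 0.0040 with cortical and striatal scores. *Acss1* was -0.064 in limma-voom, -0.013 with the endothelial score and -0.012 without CIE rat 2 and Control rat 10. *Adh1* was 1.61 with the oligodendrocyte score and *Aldh1a1* -0.12 with cortical and striatal scores. Leaving out 1 rat gave log2 fold changes of -1.02 to 0.0095 for *Adh1*, -0.039 to 0.038 for *Adh5*, -0.14 to 0.32 for *Aldh1a1*, -0.085 to 0.0079 for *Aldh1b1* and -0.061 to 0.063 for *Acss1*. Over all genes it gave 1347 to 2811 at the nominal threshold and 34 to 154 at 5% FDR. Genes at 5% FDR numbered 266 in DESeq2, 267 with its prior, 234 in limma-voom (3596 at the nominal threshold), 29 with the oligodendrocyte score, 9 with the endothelial score and 38 without CIE rat 2 and Control rat 10. The cause was not tested. Of the genes at the nominal threshold, 60.3% of 1757 were higher when scaled by library size alone, against 48.1% of 1740. In limma-voom 8 pathway genes were higher and 12 lower, with the oligodendrocyte score 7 and 4, and *Slc25a1*, *Aspa*, *Acat2*, *Aldh9a1* and *Cyp2u1* lost the nominal threshold under the oligodendrocyte and the endothelial score. These losses do not separate a change with CIE from a change in those cells' RNA. *Cat* ran from -0.23 to -0.08 and *Cyp2e1* from 0.16 to 0.96 when 1 rat was left out.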
